A study of Mus musculus with 89 samples.

Results

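Albumin and 9 genes of apolipoproteins and other proteins that the liver secretes or uses to build lipoproteins were followed through every comparison of a study of mouse liver under the influence of distant tumours. The genes were Alb, Ahsg, Ttr, Apoh, Apoa1, Apoa2, Apoc3, Apoa4, Apob and Mttp, chosen by symbol with the highest base mean kept where a symbol repeated. All 10 were found in each of the 13 deposited tables, among 42687 rows in the 10 tables keyed by Ensembl identifier and 23306 rows in the 3 keyed by RefSeq symbol. Ttr was found on chromosome 18, and the other members are placed below.

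The series held 89 samples in 23 groups, 10 of them given phosphate-buffered saline (PBS). RNA was sequenced from flash-frozen livers of mice that carried a tumour outside the liver, of mice injected with tumour extracellular vesicles and particles (EVPs), and from isolated primary hepatocytes, some of them treated with tumour necrosis factor (TNF). C57BL/6 mice received B16F10 or B16F1 melanoma cells under the skin in 100 µl and were examined after 3 weeks, in groups of 3 (B16F10-Tb, against PBS-1 with 3) and 5 (B16F1-Tb, against PBS-4 with 5). BALB/c mice received K7M2 osteosarcoma cells into the tibia in 10 µl, 5 mice against 5 in PBS-2, or 4T1 or 67NR mammary tumour cells into the mammary fat pad in 50 µl, 3 mice each against 3 in PBS-5 and 3 in PBS-3, for 4 weeks. B16F10 was derived from B16 melanoma by selection for lung colonisation, B16F1 is its weakly colonising counterpart, and 4T1 and 67NR came from the same mammary tumour but 67NR seldom forms metastases. EVP groups received 10 µg of particles into a vein every other day over 4 weeks, while their PBS groups received 100 µl of vehicle. The letters TE stand for particles shed by explanted tumour tissue and CL for those of the cultured cell line. B16F10-TE-EVPs and B16F10-CL-EVPs were given to 5 C57BL/6 mice each, against 5 each in PBS-6 and PBS-8. B16F10 exomeres (non-vesicular particles), Exo-S and Exo-L (small and large exosomes) were given to 4 C57BL/6 mice each, against 4 in PBS-10. K7M2-TE-EVPs and K7M2-CL-EVPs were given to 3 BALB/c mice each, against 3 in PBS-7. Hepatocytes labelled WT were kept with TNF or PBS for 24 hours, 3 cultures or samples each. Ages, sexes and the strain of the hepatocyte donors were not given in the labels. Each tumour model rests on 1 transplanted cell line, and each PBS group of mice also received the injection.

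The data were the authors' 13 DESeq2 comparison tables, each with a base mean per gene (the average over samples of counts divided by size factors), a log2 fold over PBS, the error of that fold and an adjusted p. Neither values of single samples nor library depths are known, so neither the spread within a group nor the overlap of groups can be shown. The base means summed to between 17755505 (B16F1-Tb table) and 51511130 (hepatocyte table). Values after ± are the standard errors of the authors' deposited tables unless stated otherwise, and a gene rose or fell where the authors' adjusted p was under 0.05. Fold changes in 10 tables had been shrunken toward 0 by the authors, those of B16F10-Tb, 4T1-Tb and 67NR-Tb had not. The labels do not say how mice of 1 group were housed or processed. The p-values measure the spread between these samples, and a cage or batch shared by a group cannot be told apart from its treatment.

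Hepatocytes make nearly all circulating albumin and most apolipoproteins, and these messages are among the most abundant of the liver. Apolipoprotein B forms the body of very low density lipoproteins, onto which the microsomal transfer protein loads triglyceride, whereas apolipoproteins A-I and A-II are the main proteins of high density lipoproteins. Apolipoproteins C-III and A-IV travel on the surface of several particle classes. In inflammation, hepatocytes raise the acute phase proteins, and the plasma levels of albumin and transthyretin are known to fall.

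Of the 10 genes, Apoa1, Apoc3 and Apoa4 lie in 1 cluster on chromosome 9 with the triglyceride-lowering Apoa5, which is not a member. Gene positions were looked up by identifier in GENCODE vM21 (build GRCm38). Apoa1 (chromosome 9, 46228580 to 46230466, plus strand) is separated by 2466 bases from Apoc3 (46232933 to 46235636, minus strand), and Apoc3 by 5059 bases from Apoa4 (46240696 to 46243459, plus strand). Alb lies on chromosome 5 (90460897 to 90476602), Ahsg on chromosome 16 (22891277 to 22899449), Apoh on chromosome 11 (108343354 to 108414396), Apoa2 on chromosome 1 (171225054 to 171226379), Apob on chromosome 12 (7977648 to 8016835) and Mttp on the minus strand of chromosome 3 (138089854 to 138144968).

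Promoter sequences of 4 genes are shown: that of Alb, the most abundant message, that of Apoa2, with a negative fold in each of the 13 tables, and those of the cluster neighbours Apoa1 and Apoa4, whose folds differed widely in B16F1-Tb. Each runs 5′ to 3′ from 250 bases before the RefSeq start (GRCm38.p6) through the 50 bases that begin with it, and capitals mark matches to the motifs named below.
Alb: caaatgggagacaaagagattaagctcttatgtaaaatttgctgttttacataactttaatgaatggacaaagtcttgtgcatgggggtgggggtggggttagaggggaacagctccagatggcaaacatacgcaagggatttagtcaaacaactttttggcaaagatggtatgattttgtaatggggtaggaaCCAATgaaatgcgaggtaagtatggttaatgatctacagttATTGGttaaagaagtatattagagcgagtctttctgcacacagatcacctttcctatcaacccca
Apoa1: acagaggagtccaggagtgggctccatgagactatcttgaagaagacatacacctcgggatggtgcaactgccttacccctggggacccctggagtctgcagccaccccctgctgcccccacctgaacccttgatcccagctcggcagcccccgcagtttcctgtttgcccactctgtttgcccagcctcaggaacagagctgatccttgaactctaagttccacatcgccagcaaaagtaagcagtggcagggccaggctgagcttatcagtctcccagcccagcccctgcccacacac
Apoa2: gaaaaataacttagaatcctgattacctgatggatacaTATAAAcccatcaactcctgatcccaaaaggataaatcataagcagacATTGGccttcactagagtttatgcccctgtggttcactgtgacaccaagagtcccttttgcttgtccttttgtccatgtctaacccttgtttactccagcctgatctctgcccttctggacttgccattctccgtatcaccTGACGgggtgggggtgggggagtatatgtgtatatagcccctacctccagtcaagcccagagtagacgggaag
Apoa4: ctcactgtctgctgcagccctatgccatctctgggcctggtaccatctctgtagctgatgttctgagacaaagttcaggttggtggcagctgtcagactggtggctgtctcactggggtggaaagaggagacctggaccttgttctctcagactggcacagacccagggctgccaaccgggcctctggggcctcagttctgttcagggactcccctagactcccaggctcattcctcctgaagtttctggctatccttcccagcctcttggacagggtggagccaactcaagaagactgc
The windows lie on the plus strand of GRCm38.p6 at chr5:90460620-90460919 (Alb), chr9:46228380-46228679 (Apoa1), chr1:171224804-171225103 (Apoa2) and chr9:46240594-46240893 (Apoa4). RefSeq windows were found for 8 of the 10 genes, all but Apoc3 and Ttr. No GENCODE coding transcript starts within 50 bases of the RefSeq start of Apoa4, so its window may not hold the promoter used.

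The motifs, searched on both strands, were the TATA box (TATAAA), the box spelled CCAAT, sites of HNF4 (CAAAGTCCA), C/EBP (TTNNGCAAT) and STAT3 (TTCNNNGAA), and the core of a cyclic AMP response element (TGACG). With position 0 at the start, Alb held a CCAAT box at -56 to -52 and another, on the opposite strand, at -15 to -11. Apoa2 held TATAAA at -212 to -207, an opposite CCAAT box at -164 to -160 and TGACG at -23 to -19. None of the motifs occurred in the windows of Apoa1, Apoa4 and Apoh. Apob held TATAAA at -60 to -55 and a C/EBP match at -90 to -82, Ahsg a C/EBP match at -32 to -24 and a CCAAT box at 22 to 26, and Mttp TGACG at -28 to -24. Among all 32851 promoter windows, TATAAA occurred in 13.6%, CCAAT in 37.4%, the HNF4 site in 0.475%, the C/EBP site in 2.18%, TGACG in 20.8% and the STAT3 site in 8.3%. The HNF1 site occurred in 0.0609% of all windows. The HNF1, HNF4 and STAT3 letters were in none of the 8 windows.

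Alb was by far the most abundant of these messages in liver. Levels were compared between genes after dividing by exon length and scaling to 1000000 per table, and the group means were derived from the deposited base mean and the unshrunken fold. Over the liver PBS groups the median length-scaled level was 139911 per 1000000 for Alb, 31503 for Apoa2, 13939 for Ttr, 13750 for Ahsg and 13141 for Apoa1. It was 4583 for Apoc3, 3850 for Apoh, 995 for Apob, 238 for Apoa4 and 162 for Mttp. Ttr, Ahsg and Apoa1 overlapped widely over the PBS groups, Ttr at 11484 to 22069, Ahsg at 11755 to 16699 and Apoa1 at 9630 to 20382, so their order is not resolved. Those of Apoc3 (4023 to 6935) and Apoh (3217 to 4233) overlapped as well. In the authors' deposited tables Alb alone took between 8.12% (hepatocytes) and 15.4% (B16F1-Tb) of the summed base means, and the 10 genes together between 10.2% and 19.7%.

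Cultured hepatocytes held another balance. In their PBS group Apoa4 stood at 5571 per 1000000 of length-scaled level, above the 149 to 516 of the liver PBS groups, and Apoa1 at 22228 was above the liver range too. Ahsg at 5252, Ttr at 6657, Apoa2 at 12868, Apoc3 at 2633 and Apoh at 1310 were below their liver ranges, while Alb at 135399, Apob at 902 and Mttp at 163 lay within them. These tables were normalised separately, so the levels are side by side and untested.

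Across the 13 comparisons the 10 genes did not move as a block. Apoa2 had a negative fold in 13 of 13 authors' deposited tables, Apoh and Apoc3 in 12, Ttr in 11, Mttp in 10, Alb in 9 and Ahsg in 8. Apoa1 was negative in 6 of these deposited tables, Apoa4 in 5 and Apob in 2. Comparisons that share a PBS group (the 3 particle classes, and both K7M2 EVP preparations) are not independent in these counts. In whole livers, fewer hepatocytes and less message per hepatocyte cannot be told apart.

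Rises and falls stood side by side in B16F1-Tb, K7M2-Tb and 4T1-Tb livers, while B16F10-Tb livers had rises alone and 67NR-Tb livers falls alone. In B16F10-Tb livers the authors' deposited table tests 9 members, of which 2 rose and 0 fell, against 6.48% risen and 5.25% fallen of all genes. For B16F1-Tb 6 of 10 rose and 1 fell, against 17.2% and 17.1% of all genes in the authors' deposited table. In K7M2-Tb livers 2 rose and 4 fell (15.1% and 12.9% of all genes in the authors' deposited table), and for 4T1-Tb 2 rose and 4 fell (22.4% and 21%). For 67NR-Tb 0 rose and 2 fell, against 9.14% and 9.42% of all genes in the authors' deposited table. The 2 risen in K7M2-Tb and in 4T1-Tb and the 1 fallen in B16F1-Tb are near these shares. Those counts are not read as a result about the members. The median log2 fold of the tested members was -0.13 in B16F10-Tb, 0.24 in B16F1-Tb, -0.05 in K7M2-Tb, -0.10 in 4T1-Tb and 0.04 in 67NR-Tb. Over all tested genes it lay within 0.02 of 0 in each of the 13 tables.

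Livers of EVP-injected mice showed falls and 1 rise. With B16F10-TE-EVPs 0 rose and 2 fell (5.23% and 3.37% of all genes in the authors' deposited table), and for B16F10-CL-EVPs 1 rose and 1 fell (2.34% and 1.44%). With exomeres 0 rose and 3 fell (4.26% and 0.67% of all genes), with Exo-S 0 and 4 (6.84% and 2.92%), and with Exo-L 0 and 7 (8.65% and 4.1%). Neither K7M2 preparation had a member past the threshold, against 1.37% risen and 2.67% fallen of all genes with K7M2-TE-EVPs and 0.626% and 0.854% with K7M2-CL-EVPs in the authors' deposited tables. Member medians were -0.11, -0.03, -0.08, -0.11, -0.26, -0.06 and -0.04 log2 for the 7 EVP groups in that order. In hepatocytes with TNF 1 rose and 9 fell, against 16.4% and 13.2% of all genes in the authors' deposited table, with a member median of -0.56.

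**Figure D1:**
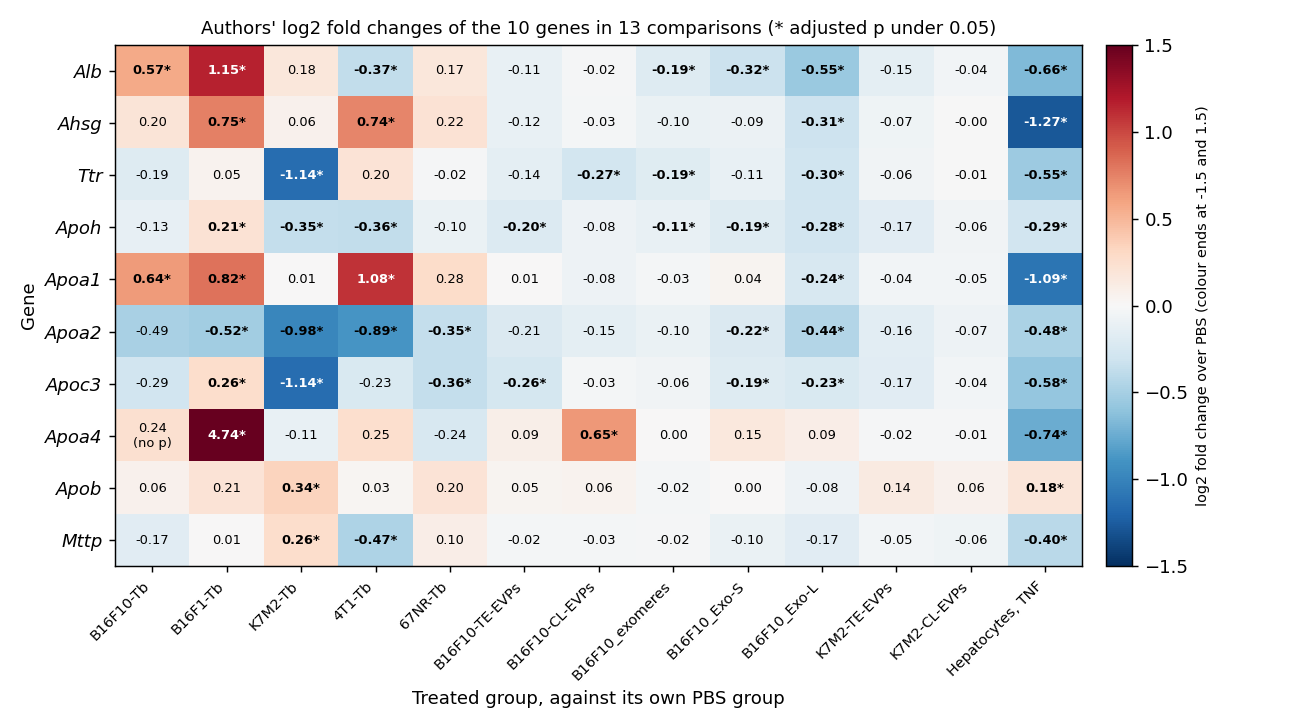
Authors' log2 fold change of each of the 10 genes (rows) in each treated group over its own PBS group (columns), red for higher and blue for lower in the treated group, with an asterisk at an adjusted p under 0.05. Apoa4 reached 4.74 in B16F1-Tb, past the end of the colour scale, and the row of Apoa2 is negative throughout.

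Alb, the main carrier protein of plasma, took opposite directions in different tumour models. It rose in both melanoma groups, by 0.57 ± 0.16 log2 in B16F10-Tb (adjusted p = 0.00429) and by 1.15 ± 0.09 in B16F1-Tb (adjusted p = 2.97e-38) in the authors' deposited tables. The implied group means were 3775320 normalised counts in B16F1-Tb livers, against 1689230 in PBS-4 livers. In 4T1-Tb livers Alb fell by 0.37 ± 0.09 log2 (adjusted p = 0.000115 in the authors' deposited table), to an implied 2130050, against 2755460 in PBS-5 livers. It did not pass in K7M2-Tb (0.18 ± 0.08, adjusted p = 0.0593) or 67NR-Tb (0.17 ± 0.08, adjusted p = 0.102) in the authors' deposited tables.

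With particles, Alb fell in the livers given each of the B16F10 size classes. The authors' deposited tables gave -0.19 ± 0.13 for exomeres (adjusted p = 0.0314), -0.32 ± 0.13 for Exo-S (adjusted p = 0.00157) and -0.55 ± 0.12 for Exo-L (adjusted p = 4.68e-07). The exomere calls of Alb, Ttr and Apoh are lost when p is adjusted over every gene with a p-value. These 3 preparations share the PBS-10 mice, so they are given side by side without a test between them. For exomeres the fold recovered without shrinkage was -0.29, over 1.5 times the deposited one, and the same held for Ttr (-0.29 recovered, -0.19 deposited by the authors). Alb did not pass with B16F10-TE-EVPs (adjusted p = 0.367), B16F10-CL-EVPs (0.889), K7M2-TE-EVPs (0.22) or K7M2-CL-EVPs (0.645) in the authors' deposited tables. In TNF-treated hepatocytes Alb fell by 0.66 ± 0.04 log2 (adjusted p = 8.68e-51 in the authors' deposited table). Afm, a gene of the albumin family, lies 42329 bases downstream of Alb. It stood at 0.05 ± 0.13 in B16F1-Tb and 0.17 ± 0.17 in B16F10-Tb in the authors' deposited tables, past the threshold in neither. Afm fell beside Alb in 4T1-Tb (-0.43 ± 0.10, adjusted p = 0.000207), with Exo-L (-0.33 ± 0.12, adjusted p = 0.000587) and with TNF (-0.30 ± 0.07, adjusted p = 1.16e-05), but did not pass with exomeres (-0.09 ± 0.08, adjusted p = 0.21) or Exo-S (-0.12 ± 0.09, adjusted p = 0.193) in the authors' deposited tables.

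Ahsg, which encodes the calcification inhibitor fetuin-A, rose in 2 tumour groups and fell with Exo-L and with TNF. It rose by 0.75 ± 0.13 in B16F1-Tb (adjusted p = 1.27e-08) and by 0.74 ± 0.10 in 4T1-Tb (adjusted p = 1.31e-12) in the authors' deposited tables. It fell with Exo-L (-0.31 ± 0.12, adjusted p = 0.00245) and with TNF (-1.27 ± 0.05, adjusted p = 8.12e-134) in the authors' deposited tables. The TNF fall took the implied mean to 76995 normalised counts in TNF hepatocytes, against 186740 in PBS hepatocytes. Fetub, its related neighbour on chromosome 16, passed in the same direction in these comparisons, with 0.87 ± 0.16 in B16F1-Tb (adjusted p = 2.32e-08), 0.78 ± 0.12 in 4T1-Tb (adjusted p = 3.3e-10), -0.30 ± 0.11 with Exo-L (adjusted p = 0.0014) and -0.39 ± 0.06 with TNF (adjusted p = 5.73e-11) in the authors' deposited tables. Fetub also passed where Ahsg did not, in B16F10-Tb (0.41 ± 0.15, adjusted p = 0.0483), K7M2-Tb (0.23 ± 0.10, adjusted p = 0.0319), 67NR-Tb (0.22 ± 0.08, adjusted p = 0.0265) and with B16F10-TE-EVPs (-0.21 ± 0.08, adjusted p = 0.0223) in the authors' deposited tables. Hrg, which lies beyond Fetub and encodes a histidine-rich plasma protein, stood at 0.13 ± 0.13 in B16F1-Tb in the authors' deposited table (adjusted p = 0.429). It passed in 4T1-Tb (0.16 ± 0.06, adjusted p = 0.0344), K7M2-Tb (0.29 ± 0.11, adjusted p = 0.0125) and with TNF (-0.15 ± 0.06, adjusted p = 0.0171) in the authors' deposited tables.

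Ttr, which encodes transthyretin, the carrier of thyroxine and of retinol-binding protein, rose in none of the 13 comparisons. In K7M2-Tb livers it fell by 1.14 ± 0.14 log2 (adjusted p = 7.07e-16 in the authors' deposited table), to an implied 88926 normalised counts, against 199923 in PBS-2 livers. It also fell with TNF (-0.55 ± 0.07, adjusted p = 3.74e-16), Exo-L (-0.30 ± 0.12, adjusted p = 0.0018), B16F10-CL-EVPs (-0.27 ± 0.14, adjusted p = 0.0221) and exomeres (-0.19 ± 0.14, adjusted p = 0.0357) in the authors' deposited tables. In the other tumour groups Ttr lay between -0.19 and 0.20 log2 in the authors' deposited tables and did not pass.

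Apoh encodes beta-2-glycoprotein I, which binds anionic phospholipids. Its changes were small but passed in 8 comparisons: it rose in B16F1-Tb (0.21 ± 0.09, adjusted p = 0.0287) and fell in 7 others of the authors' deposited tables. The falls ran from -0.11 ± 0.05 with exomeres (adjusted p = 0.0471) to -0.36 ± 0.07 in 4T1-Tb (adjusted p = 3.71e-07) in the authors' deposited tables, and took in K7M2-Tb (-0.35), B16F10-TE-EVPs (-0.20), Exo-S (-0.19), Exo-L (-0.28) and TNF (-0.29).

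The main proteins of high density lipoproteins parted in tumour-bearing mice. Apoa1, whose product forms the particle and activates cholesterol esterification, rose by 1.08 ± 0.14 in 4T1-Tb (adjusted p = 2.66e-14), 0.82 ± 0.16 in B16F1-Tb (adjusted p = 3.43e-07) and 0.64 ± 0.18 in B16F10-Tb (adjusted p = 0.00534) in the authors' deposited tables. In 4T1-Tb livers its implied mean was 233101 normalised counts, against 109984 in PBS-5 livers. Apoa2, the partner of Apoa1 on the particle, fell in 4T1-Tb by 0.89 ± 0.15 (adjusted p = 3.65e-08) and in B16F1-Tb by 0.52 ± 0.14 (adjusted p = 0.000117) in the authors' deposited tables. The largest Apoa2 fall was in K7M2-Tb, by 0.98 ± 0.14 (adjusted p = 1.5e-12 in the authors' deposited table), to an implied 95528, against 193063 in PBS-2 livers, where Apoa1 stood at 0.01 ± 0.11 (adjusted p = 0.965). In B16F10-Tb Apoa2 stood at -0.49 ± 0.19 in the authors' deposited table and did not pass (adjusted p = 0.078).

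Apoa2 was also the member that fell most often beside Apoh. It fell in 67NR-Tb (-0.35 ± 0.09, adjusted p = 0.00119), with Exo-S (-0.22 ± 0.07, adjusted p = 0.000773), Exo-L (-0.44 ± 0.07, adjusted p = 1.24e-10) and TNF (-0.48 ± 0.07, adjusted p = 3.65e-11) in the authors' deposited tables. Apoa1 fell with TNF by 1.09 ± 0.09 (adjusted p = 6.91e-33) and with Exo-L by 0.24 ± 0.15 (adjusted p = 0.0434) in the authors' deposited tables.

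Apoc3 encodes an inhibitor of lipoprotein lipase and of particle clearance. It had its deepest fall in K7M2-Tb, by 1.14 ± 0.14 (adjusted p = 1.66e-15 in the authors' deposited table), to an implied 21581 normalised counts, against 48588 in PBS-2 livers. It fell further with TNF (-0.58 ± 0.07), in 67NR-Tb (-0.36 ± 0.09), and with B16F10-TE-EVPs (-0.26 ± 0.11), Exo-L (-0.23 ± 0.07) and Exo-S (-0.19 ± 0.07) in the authors' deposited tables. Its only rise among the 13 was in B16F1-Tb, 0.26 ± 0.09 (adjusted p = 0.00892 in the authors' deposited table). In K7M2-Tb the cluster neighbours did not move together: Apoc3 and Apoa5 fell, Apoa5 by 1.09 ± 0.18 (adjusted p = 2.24e-09), while Apoa1 and Apoa4 (-0.11 ± 0.16, adjusted p = 0.551) did not pass in the authors' deposited table.

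**Figure D2:**
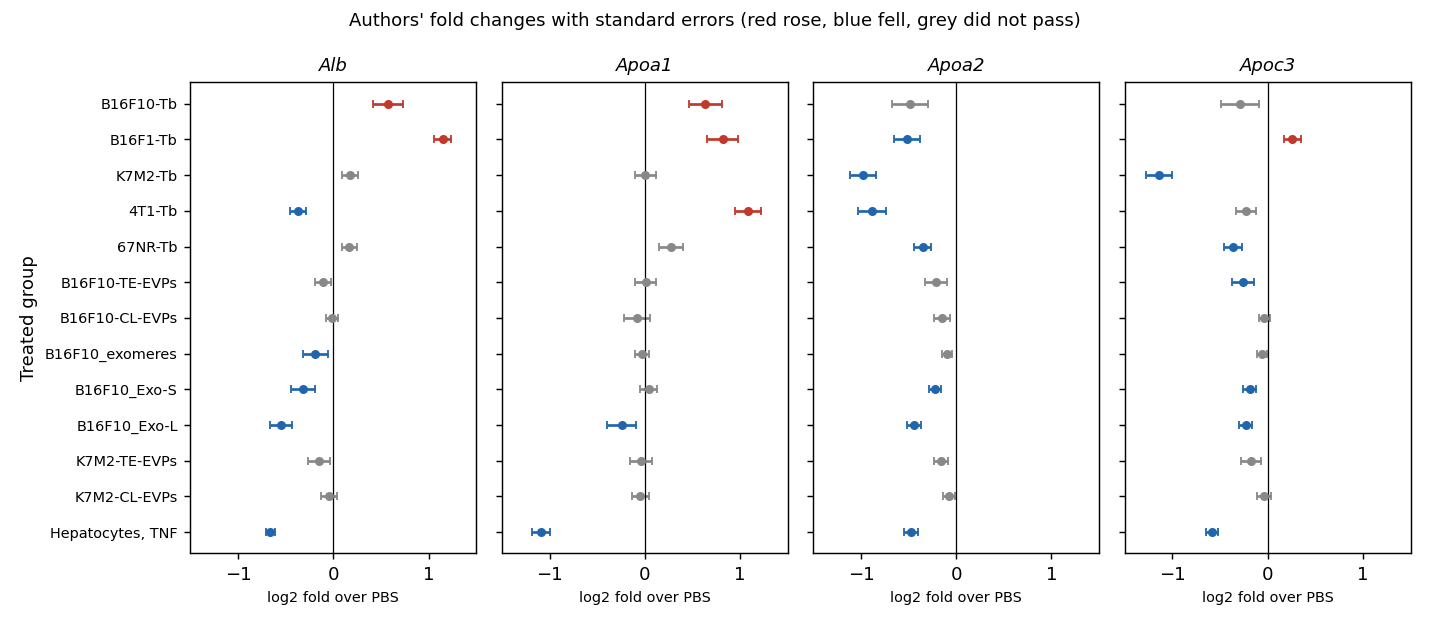
Authors' log2 fold change over PBS (horizontal axis) with its standard error for Alb, Apoa1, Apoa2 and Apoc3, 1 row per treated group, red where the gene rose, blue where it fell and grey where it did not pass. In 4T1-Tb Apoa1 is at 1.08 and Apoa2 at -0.89, and in K7M2-Tb Apoa2 is at -0.98 and Apoc3 at -1.14.

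Apoa4, whose product is carried on chylomicrons and high density lipoproteins and is made in mice by both gut and liver, gave the largest fold of the 10 genes. In B16F1-Tb it rose by 4.74 ± 0.21 log2 (adjusted p = 6.55e-109 in the authors' deposited table), a fold of 26.8, to an implied 73355 normalised counts, against 2706 in PBS-4 livers. In B16F10-Tb the authors' deposited table gave 0.24 ± 0.27 with no p-value, which DESeq2 withholds where a count is extreme, and the means came to an implied 11654 in B16F10-Tb livers, against 9860 in PBS-1 livers. No value of single mice is at hand, so how many of the 5 B16F1 livers carried the rise is unknown. In that deposited table of the authors the cluster neighbours Apoa1 (0.82) and Apoc3 (0.26) rose by less, and Apoa5 fell by 0.38 ± 0.19 (adjusted p = 0.0376).

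For the B16F1 samples 7 enterocyte markers were looked up. Alpi, Sis and Cdx1 were listed at 0 in the authors' deposited B16F1-Tb table, and of the 2 markers tested 0 rose, while Fabp2, a fatty acid binding protein gene of the gut that liver also expresses, fell by 1.03 ± 0.18 (adjusted p = 2.79e-08). Derived from base mean and deposited fold, the list summed to 0.0026% of the summed base means in B16F1-Tb livers, against 0.00528% in PBS-4 livers. Nearly all of that sum was Fabp2, at a base mean of 693 in the B16F1-Tb comparison, against 5.03 for Vil1. The sum therefore restates the fall of Fabp2, and the presence of gut tissue was not tested.

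Among the other comparisons Apoa4 rose with B16F10-CL-EVPs, by 0.65 ± 0.22 (adjusted p = 0.00432 in the authors' deposited table), to an implied 4890 normalised counts, against 2877 in PBS-8 livers. In hepatocytes with TNF it fell by 0.74 ± 0.09 (adjusted p = 6.57e-16 in the authors' deposited table), to an implied 96368, against 163632 in PBS hepatocytes. It did not pass in the other 9 comparisons in which the authors' deposited tables give it a p-value, where it lay between -0.24 and 0.25 log2.

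**Figure D3:**
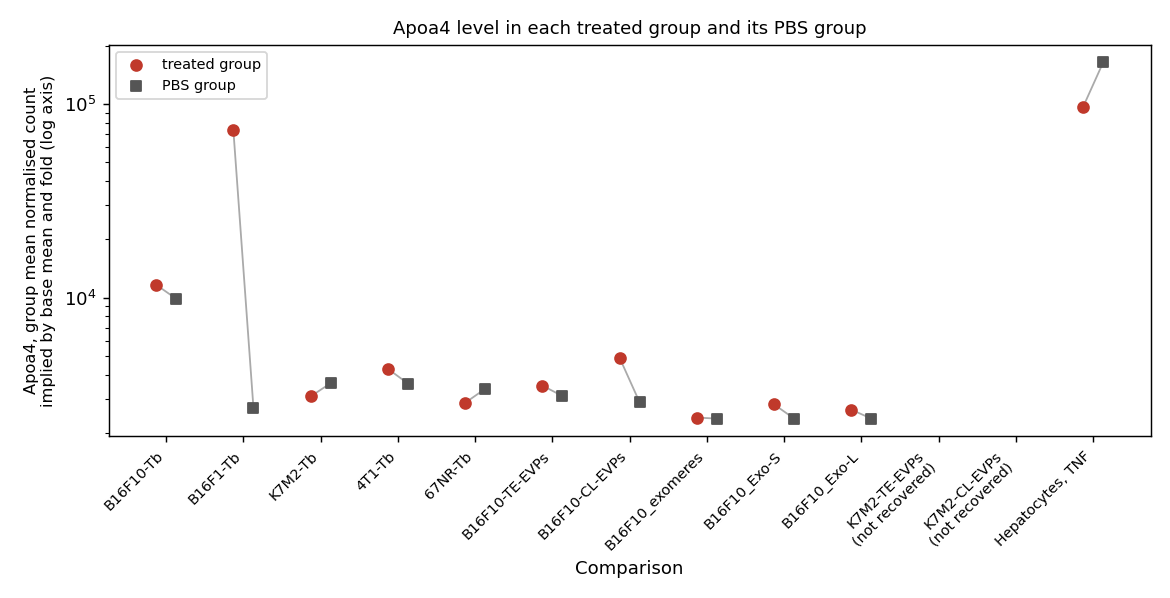
Mean normalised count of Apoa4 (vertical log axis) in each treated group (red circles) and its PBS group (grey squares), derived from the base mean and the unshrunken fold, joined by a line per comparison. The B16F1-Tb group is at 73355 and PBS-4 at 2706, and the hepatocyte groups at 96368 with TNF and 163632 with PBS. For both K7M2 EVP tables the group means were not recovered.

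Apob and Mttp, the genes for the body of very low density lipoproteins and for the protein that loads it with lipid, passed in 2 and in 3 comparisons. Apob rose in K7M2-Tb (0.34 ± 0.14, adjusted p = 0.0135) and with TNF (0.18 ± 0.07, adjusted p = 0.00997) in the authors' deposited tables and fell in none of the 13. Mttp rose in K7M2-Tb by 0.26 ± 0.11 (adjusted p = 0.0221) and fell in 4T1-Tb by 0.47 ± 0.09 (adjusted p = 6.91e-07) and with TNF by 0.40 ± 0.07 (adjusted p = 1.3e-09) in the authors' deposited tables. The K7M2-Tb livers held rises of Apob and Mttp beside falls of Apoa2, Apoc3, Ttr and Apoh. With TNF Apob was the single member of the 10 that rose.

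Effects were then compared between pairs of treated groups that share no samples, with the difference of unshrunken effects over its combined error, a normal approximation and adjustment over all genes tested in both tables. Each treated group was set against its own PBS group, so treatment and experiment cannot be told apart in any pair. Between the mammary lines 6 of 10 members differed, against 31.9% of all genes. Apoa1 was higher by 0.81 ± 0.18 log2 in 4T1-Tb than in 67NR-Tb (effects 1.08 and 0.28, adjusted p = 0.000119), and Ahsg by 0.52 ± 0.14 (adjusted p = 0.00182). Mttp differed by -0.57 ± 0.11 (adjusted p = 7.46e-06), Alb by -0.54 ± 0.12 (adjusted p = 3.6e-05), Apoa2 by -0.53 ± 0.17 (adjusted p = 0.00981) and Apoh by -0.26 ± 0.09 (adjusted p = 0.021), each lower in 4T1-Tb. With errors enlarged by 25% Apoa2 and Apoh lose these calls, and with effects centred on the median of tested genes Apoh loses its call and Apoa4 gains one. For Ttr, Apoc3, Apoa4 and Apob the difference did not pass, and that of Apoa4 was 0.49 with a 95% interval of 0.0799 to 0.907 (adjusted p = 0.0583).

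Between the melanoma lines 1 of 9 tested members differed, against 9.08% of all genes. That count is near the share of all genes and is not read as a result about the members. Genes were keyed by RefSeq symbol for B16F10-Tb and by Ensembl identifier for B16F1-Tb, so cell line and processing cannot be told apart. The effect on Alb was smaller in B16F10-Tb than in B16F1-Tb by 0.59 ± 0.18 log2 (effects 0.57 and 1.16, adjusted p = 0.0164), a call lost with errors enlarged by 25%. Apoa4 was not tested in this pair because the B16F10-Tb table gives it no p-value. Ahsg had a difference of almost the same size, -0.59 ± 0.22, that did not pass (adjusted p = 0.0696), and Apoc3 one of -0.57 ± 0.22 (adjusted p = 0.076).

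Particles were set against the tumours they came from, in separate experiments with separate PBS groups. B16F10-Tb livers were taken after 3 weeks and B16F10-TE-EVPs livers after 4, with genes keyed by RefSeq symbol and by Ensembl identifier. Treatment, time and processing cannot be told apart in that pair. K7M2-TE-EVPs differed from K7M2-Tb in 4 of 10 members, against 18.3% of all genes. Ttr, Apoc3 and Apoa2 had fallen in K7M2-Tb livers. The same K7M2-Tb folds enter the difference, which favours a positive value for members picked by their fall. The difference was 1.01 ± 0.24 log2 for Ttr (effects -0.16 and -1.17, adjusted p = 0.000328), 0.94 ± 0.17 for Apoc3 (effects -0.23 and -1.17, adjusted p = 1.51e-06) and 0.82 ± 0.15 for Apoa2 (effects -0.19 and -1.02, adjusted p = 3.1e-06). For Apoh, the other member that fell in K7M2-Tb, it was 0.17 ± 0.12 (effects -0.21 and -0.38) and did not pass (adjusted p = 0.399). Alb differed the other way, by -0.42 ± 0.15 (effects -0.22 and 0.20, adjusted p = 0.0286), a call lost with errors enlarged by 25% and with folds and errors as deposited. B16F10-TE-EVPs differed from B16F10-Tb in Alb alone of 9 tested members (-0.72 ± 0.18, effects -0.15 and 0.57, adjusted p = 0.00668), against 2.79% of all genes, and that call too is lost with the larger errors.

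Between B16F10-TE-EVPs and B16F10-CL-EVPs 0 of 10 members differed, against 2.88% of all genes. The 95% interval of the difference ran from -0.389 to 0.195 log2 for Alb, from -0.0855 to 1.08 for Apoa1 and from -1.07 to -0.0983 for Apoa4. For Apoa4 the unadjusted p was 0.0185 and the adjusted p 0.181, and Apoc3 was the other member with an unadjusted p under 0.05 (0.0492). The rise of Apoa4 with CL-EVPs is therefore not shown to differ from its value with TE-EVPs.

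**Figure D4:**
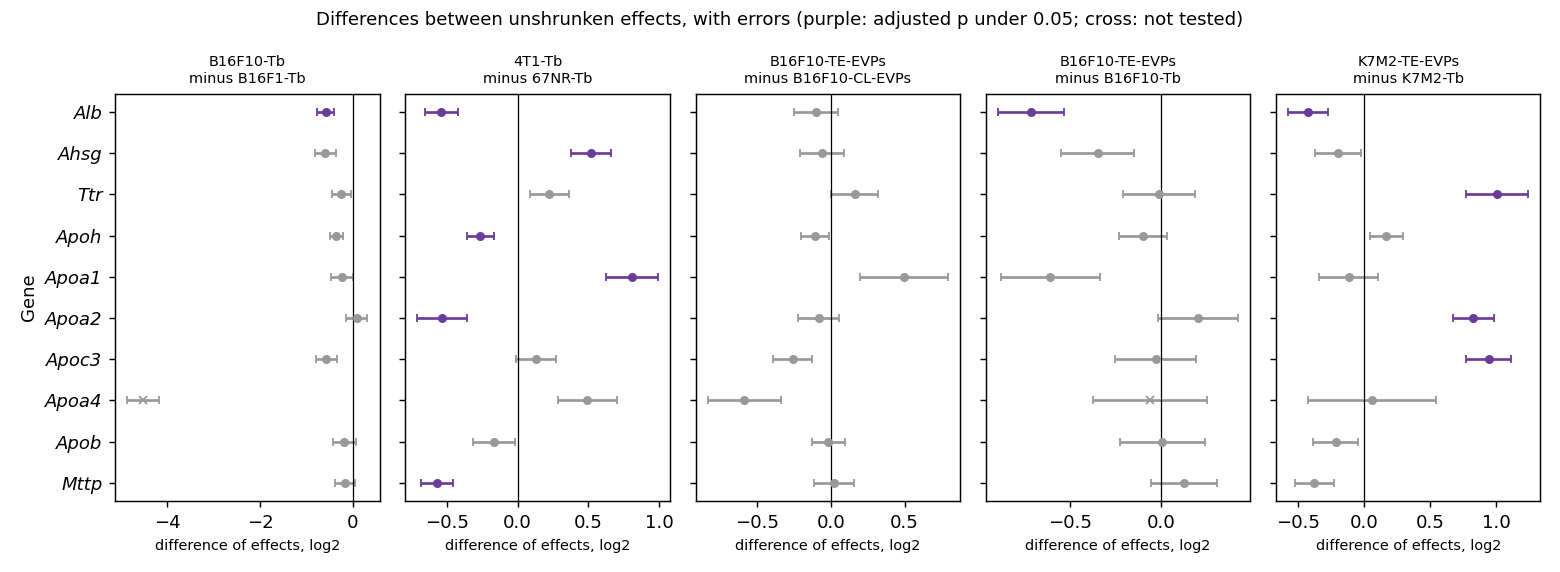
Difference of log2 effects, first group minus second, with its standard error for each of the 10 genes in 5 pairs of treated groups, purple at an adjusted p under 0.05, grey otherwise and a cross where a table gives no p-value. The 4T1-Tb minus 67NR-Tb panel holds 6 purple points, Apoa1 at 0.81 and Mttp at -0.57 being the outermost, and the panel of both B16F10 EVP preparations holds none. Horizontal scales differ between panels.

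Other genes of lipoprotein assembly and turnover, 27 in all, changed in both directions. For this list and each list below, 16.4% of all genes rose and 13.2% fell with TNF. These shares were 17.2% and 17.1% in B16F1-Tb, 15.1% and 12.9% in K7M2-Tb and 22.4% and 21% in 4T1-Tb. They were 9.14% and 9.42% in 67NR-Tb, 6.48% and 5.25% in B16F10-Tb, 8.65% and 4.1% with Exo-L and 6.84% and 2.92% with Exo-S. Those of the other EVP groups are given above. In hepatocytes with TNF 17 of 27 fell and 3 rose in the authors' deposited table (list median -0.26), led by Angptl4, an inhibitor of lipoprotein lipase, at 0.95 ± 0.07, and Apof at -0.80 ± 0.07. In B16F1-Tb 6 rose and 9 fell (median 0.01), among them Apoc1 at -0.96 ± 0.12 in the authors' deposited table. In K7M2-Tb 13 rose and 7 fell according to the authors' deposited table (median 0.23), in 4T1-Tb 6 and 10, in 67NR-Tb 3 and 6, and in B16F10-Tb 4 and 4 of 25. With Exo-L and with Exo-S 6 fell and 0 rose, with B16F10-TE-EVPs 3 fell and 2 rose, with exomeres and with K7M2-TE-EVPs 1 fell, and with both CL-EVP preparations 0 passed in the authors' deposited tables.

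Of 18 other constitutive plasma proteins, 15 fell and 1 rose with TNF in the authors' deposited table (median -0.30), with the hyaluronan-binding Itih2 at -0.67 ± 0.06 and the retinol carrier Rbp4 at -0.45 ± 0.06. With Exo-L 10 fell and 0 rose (median -0.18), including Itih2 at -0.31 ± 0.08 in the authors' deposited table. In B16F1-Tb 8 rose and 4 fell (median 0.13), the widest apart being transferrin, Trf, at 1.81 ± 0.14 and the glucocorticoid carrier Serpina6 at -3.41 ± 0.26 in the authors' deposited table. In 4T1-Tb 8 rose and 8 fell, in K7M2-Tb 9 and 4, in B16F10-Tb 7 and 1, and in 67NR-Tb 3 and 3 of 17 in the authors' deposited tables. With Exo-S 5 fell, with B16F10-TE-EVPs 4 (and 1 rose) and with exomeres 2, while 0 passed with the other preparations in the authors' deposited tables.

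Of 17 transcriptional regulators of hepatocytes 9 fell and 0 rose with TNF in the authors' deposited table, with Prox1 at -1.04 ± 0.08 and Cebpa at -1.11 ± 0.09. In B16F1-Tb, where Alb, Ahsg and Apoa1 rose, 7 regulators fell and 0 rose, including Cebpa at -0.79 ± 0.13 in the authors' deposited table. In 4T1-Tb 9 fell and 1 rose, in K7M2-Tb 3 and 1, in B16F10-Tb 1 and 1, and in 67NR-Tb 1 and 2 in the authors' deposited tables. Of all genes 12.9% fell and 15.1% rose in K7M2-Tb, 5.25% and 6.48% in B16F10-Tb, and 9.42% and 9.14% in 67NR-Tb. With 17 genes, the counts in K7M2-Tb, B16F10-Tb and 67NR-Tb are not read as a result about the list. With Exo-L 3 fell and 0 rose, with Creb3l3 at -0.23 ± 0.09 in the authors' deposited table. With B16F10-TE-EVPs 1 rose, with K7M2-CL-EVPs 1 fell, and with the other 4 EVP preparations 0 passed in the authors' deposited tables.

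The acute phase proteins, 15 genes, mostly rose in each of the 5 tumour groups and fell more often than they rose with TNF. In 4T1-Tb and K7M2-Tb 15 of 15 rose, in B16F1-Tb 11 rose and 1 fell, and in B16F10-Tb 11 of 14 and in 67NR-Tb 11 of 13 rose in the authors' deposited tables. With Exo-L 9 rose, with Exo-S and exomeres 8 each, with K7M2-CL-EVPs 4, with B16F10-CL-EVPs 2 (and 1 fell), and with both TE-EVP preparations 0 in the authors' deposited tables. In hepatocytes with TNF 2 rose and 9 fell, Saa3 at 2.01 ± 0.09 and the fibrinogen gene Fgb at -0.94 ± 0.07 in the authors' deposited table.

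Other cell types' markers moved with several of these results, and their part in the member folds was not tested. Of 12 hepatocyte identity markers all 12 fell with TNF in the authors' deposited table, Cps1 of the urea cycle by 3.14 ± 0.10, and they summed to 0.167% of the base means in TNF hepatocytes, against 0.303% in PBS hepatocytes. In the PBS livers the same list took between 2.89% and 3.65%, so the hepatocyte cultures were low in it. The list fell in 8 of 12 members in B16F1-Tb (7 in K7M2-Tb, 6 in 4T1-Tb, 6 of 11 in B16F10-Tb, 4 in 67NR-Tb) in the authors' deposited tables, and to a summed 2.04% in B16F1-Tb livers, against 3.19% in PBS-4 livers. It fell in 4 members with Exo-L and with each TE-EVP preparation, in 3 with Exo-S and in 1 with exomeres in the authors' deposited tables. In B16F1-Tb all 8 Kupffer cell, 8 neutrophil, 7 sinusoidal endothelial and 7 erythroid markers rose in the authors' deposited table. Erythroid markers summed to 0.073% of the base means in B16F1-Tb livers, against 0.00364% in PBS-4 livers, and neutrophil markers to 0.00496%, against 0.000143%.

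In K7M2-Tb 8 of 8 Kupffer, 8 of 8 neutrophil and 6 of 7 erythroid markers rose in the authors' deposited table, and in 4T1-Tb 8 of 8 Kupffer, 6 of 6 neutrophil and 6 of 7 stellate cell markers. Neutrophil markers summed to 0.2% of the base means in 4T1-Tb livers, against 0.00492% in PBS-5 livers. Kupffer markers rose in 8 of 8 cases with Exo-L, where they summed to 0.13%, against 0.0492% in PBS-10 livers, and in 8 of 8 with B16F10-TE-EVPs in the authors' deposited tables. With exomeres and B16F10-CL-EVPs 7 of 8 rose, with Exo-S 5, and with both K7M2 preparations 0 in the authors' deposited tables. In 67NR-Tb 7 of 8 Kupffer and 6 of 7 sinusoidal endothelial markers rose in the authors' deposited table.

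In K7M2-Tb livers, beside the rises above, 4 of 7 stellate and 2 of 7 endothelial markers fell in the authors' deposited table. With B16F10-CL-EVPs, where Apoa4 rose, 5 of 7 stellate markers rose, and with B16F10-TE-EVPs, Exo-S and Exo-L 3 of 7 each in the authors' deposited tables. In TNF hepatocytes 3 Kupffer markers rose and 4 fell, Marco at 1.33 ± 0.10 and Vsig4 at -4.68 ± 0.43, and 3 stellate markers fell and 1 rose according to the authors' deposited table. Kupffer markers summed to 0.00886% of the base means in TNF hepatocytes, against 0.00553% in PBS hepatocytes, and stellate markers to 0.00563%, against 0.0126%. Most of the stellate sum was Reln, at a base mean of 4062 and a fold of -1.40 ± 0.09 with TNF in the authors' deposited table. Dcn, at a base mean of 471, was the stellate marker that rose (0.42 ± 0.15). With B16F10-Tb 1 of 6 tested Kupffer and 3 of 4 tested neutrophil markers rose in the authors' deposited table.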

How the data were processed

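Total RNA of mouse livers and primary hepatocytes was sequenced as TruSeq stranded mRNA libraries, per the labels. The tools named per the submitters' processing notes were TopHat2 2.0.11, Cufflinks 2.1.1, bcl2fastq 2.19 and an unversioned DESeq2, with build mm9; the counting tool and annotation are not given in the sources used here. Of 42687 Ensembl identifiers 42250 are in GENCODE vM21 (GRCm38), so mm9 may not hold for those tables. Per the file headers each of the authors' 13 deposited tables gives a p-value and adjusted p-value, a log2 fold with its error, and a base mean (a signal averaged over samples and scaled by size factors). The 3 tables keyed by symbol also hold a test score, per the file headers. Folds in the 10 other deposited tables are shrunken.

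Computed here, in Python 3.11.15 with pandas 2.3.3, numpy 2.4.6, scipy 1.17.1 and matplotlib 3.10.9, were exon-length-scaled levels, group means implied by base mean and unshrunken fold (assuming that a fit held the labelled groups and no others), and differences of effects for 5 pairs without shared samples. Unshrunken folds were recovered for 98 of 100 member values by inverting a Cauchy prior fitted per table; the recovered scores lay within 0.643 of those from the p-values (median gap 0.0696), so differences close to the threshold are uncertain. Summed list levels per group were derived from base mean and the deposited fold, shrunken or not, with a missing fold taken as no change. The planned count test was not possible on these tables. Simulated data with 200 genes changed by 1 log2 gave 133 recovered with 5 wrong calls for B16F10-Tb against B16F1-Tb, 167 with 14 for 4T1-Tb against 67NR-Tb, 169 with 7 for B16F10-TE-EVPs against B16F10-CL-EVPs, 140 with 4 for B16F10-TE-EVPs against B16F10-Tb and 165 with 11 for K7M2-TE-EVPs against K7M2-Tb. In each pair the changed genes were set among all genes tested.

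Genes named beside the members are the 2 of smallest adjusted p per list in the 3 comparisons with most members called (TNF, B16F1-Tb and Exo-L, chosen by that rule), with some not reported here, and the chromosomal neighbours. The members and the 11 lists were chosen with earlier results of these data known. Depth per sample is unknown, so precision is that of the authors' standard errors.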

Additional observations from a re-analysis of the deposited data

Results flagged for a closer look

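The effects of 2 treated groups, each over its own PBS group, differed by the test of the difference itself for 12 combinations of gene and pair. Pairs of EVPs and tumour set different treatments side by side. Values are differences of log2 effects, first group minus second. For B16F10-Tb minus B16F1-Tb this was Alb (-0.59), in a pair whose count of differing members was near the share of all genes. For 4T1-Tb minus 67NR-Tb it was Alb (-0.54), Ahsg (0.52), Apoh (-0.26), Apoa1 (0.81), Apoa2 (-0.53) and Mttp (-0.57). For B16F10-TE-EVPs minus B16F10-Tb it was Alb (-0.72). For K7M2-TE-EVPs minus K7M2-Tb it was Alb (-0.42), Ttr (1.01), Apoa2 (0.82) and Apoc3 (0.94).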

How the results depend on the processing

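No paired analysis was possible because the deposited tables hold comparisons and no values of single samples; for the same reason no replicate was left out. With an adjusted p under 0.01 in place of 0.05, the count of members called went to 0 (2 at 0.05) for B16F10-TE-EVPs, to 1 (2) for B16F10-CL-EVPs and to 0 (3) for exomeres. With the adjustment made over every gene with a p-value it was 0 (3) for exomeres, where Alb, Ttr and Apoh lost their calls, as did Apoa1 with Exo-L. With every error enlarged by 25%, the count of differing members was 0 (1) for B16F10-Tb minus B16F1-Tb and 0 (1) for B16F10-TE-EVPs minus B16F10-Tb, both Alb. Other counts stayed within 1.5 times, but not always with the same members. For 4T1-Tb minus 67NR-Tb, enlarged errors dropped Apoa2 and Apoh, and centring dropped Apoh and added Apoa4. For K7M2-TE-EVPs minus K7M2-Tb, Alb was dropped with enlarged errors and with values as deposited, and centring added Mttp. Of 130 member values, 10 lost their call at 0.01 and 4 with adjustment over every gene, and 0 changed direction under any alternative run. A base mean of at least 10 changed 0 of 130 calls; centring on the median of all genes changed 0 of 130 directions. Depth sets no stated limit, since library sizes are unknown.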

Other observations

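Averaged over the comparisons that share a PBS group, the folds give 10 points per gene. Across these points Ahsg and Apoa1 had a Pearson r of 0.96, Ttr and Apoc3 of 0.84 and Apoa2 and Apoa1 of -0.35, as a description over points that mix strains, tumours and cultured cells. Among 8101 genes with a base mean of at least 100 in every table, the patterns most like that of Alb were those of Gc (0.97), Dusp3 (0.96) and Grb14 (0.95). Those most like Apob were Polr3d (0.95), Hs2st1 (0.92) and Srpr (0.91). For Apoa4 they were Rbak (0.98), Egln1 (0.97) and Fabp4 (0.96), and without the B16F1-Tb point, left out after the data were seen, these values were 0.76, 0.57 and 0.07. For Alb, Apob and Apoa4 alike, the genes named are the highest of 8101 over only 10 points. Such a choice favours high values, and no test of them was made.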
